A study of Mus musculus with 42 samples.

Results

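Stab1, Axl and Vcam1 are 3 genes usually studied outside T cells, and they are described here in T cells of mice with and without a TNF-driven joint and gut disease. They were matched by Ensembl identifier among the 46603 genes of the deposited count table, and all 3 were found. They were chosen because earlier results of these data showed them higher in TNFdARE than in WT T cells, so the difference between genotypes is given below as a description, with standard errors and with no test. Treg against Tconv and tissue against draining node were tested, since neither was the contrast of that choice. Both average the genotypes, so they include the TNFdARE libraries on which the genes were chosen. Their p-values are therefore not independent of the choice.

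Stab1 encodes stabilin-1, a large scavenger receptor of the cell surface and endosomes that takes up modified lipoproteins, matrix fragments and dying cells. It is best known from sinusoidal endothelium and from tissue macrophages. Axl is a receptor tyrosine kinase of the TAM family (Tyro3, Axl, Mertk). Its ligand Gas6 bridges it to phosphatidylserine on dying cells, and in dendritic cells and macrophages its signal dampens inflammation. Vcam1 is an immunoglobulin-family adhesion molecule that TNF induces on endothelium, and lymphocytes bind it through the integrin of the Itga4 and Itgb1 chains. It also stands on fibroblastic stroma and on some macrophages. Because all 3 are known macrophage genes, the macrophage genes Csf1r (the receptor of macrophage colony-stimulating factor), C1qa (a chain of complement C1q) and Adgre1 (the F4/80 antigen) were read in the same libraries.

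The cells were CD4 T cells sorted by the green fluorescence of a Foxp3 reporter into Treg, which carry it, and Tconv, which do not. They came from 4 sites, the ileum with its mesenteric lymph node and the ankle synovium with its popliteal and inguinal nodes (joint nodes). TNFdARE mice, which lack an AU-rich element of Tnf and overproduce TNF, were compared with WT littermates. Both genotypes carried the DEREG reporter transgene, in which the Foxp3 locus drives the fluorescent protein, and ages and pooling are not given in the sources used here. The 42 libraries form 16 groups from 3 experiments, A, B and C. Most groups held 1 library from each experiment. Experiment A is missing for Treg and for Tconv of the TNFdARE mesenteric node, which leaves n = 2. In the synovium, experiment C is missing for TNFdARE Tconv and WT Treg (n = 2), and WT Tconv has experiment A alone, with no replicate. Total counts per library lay between 18261064 and 30301202.

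The libraries carried the RNA of T cells, and some tissue libraries carried RNA of other cells as well. Cd3e lay between 453 and 1417 CPM (counts divided by library size, with TMM factors over all libraries) and Cd4 between 292 and 1331 CPM in all 42 libraries. The sum of 10 stromal genes lay between 8.31 and 16418 CPM in the 20 tissue libraries, against 0 to 8.58 CPM in the 22 node libraries. The sum of 15 macrophage genes lay between 0.0894 and 451 CPM in tissue and between 2.53 and 9.92 CPM in nodes. The single WT synovial Tconv library stands apart. Its sum of 4 cytotoxic genes (such as Cd8b1 and Klrb1c) was 863 CPM, against 32 and 76.2 CPM in TNFdARE synovial Tconv and at most 39.8 CPM in every library outside synovial Tconv. Its sum of 3 T cell genes, 987 CPM, was the lowest of all 42 libraries. The stromal sum of synovial Tconv was 936 and 1931 CPM in TNFdARE, against 253 CPM in that library. No comparison of genotypes in synovial Tconv can be made without it, and the part of other cells in those values was not tested. Foxp3, the gene that defines Treg, was higher in TNFdARE than in WT Tconv at all 4 sites, with values given further on. In bulk RNA, fewer cells of a kind and less RNA per cell cannot be told apart.

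Stab1 (ENSMUSG00000042286) is a protein-coding gene on the minus strand of chromosome 14, at chr14:31139013-31168641 (GRCm38, GENCODE M21). Its last bases overlap the end of Nt5dc2 on the plus strand, a gene with 1167 counts over all libraries, and reads in that overlap cannot be assigned without strand. Axl (ENSMUSG00000002602) lies on the minus strand at chr7:25757273-25788705. Vcam1 (ENSMUSG00000027962) lies on the minus strand at chr3:116109949-116129688, and its start overlaps the antisense gene Gm43109, which held 35 counts in all. The RefSeq promoter table (GRCm38.p6) held windows of 300 bases, from 250 before to 50 after the start, for 2 of the 3 genes. They are printed because both genes are higher in TNFdARE T cells and motifs of TNF-induced factors were searched in them, on both strands. These were an NF-kB-like motif (GGG and CC with 5 bases of any kind between them), an AP-1-like motif (TGANTCA) and an interferon regulatory factor-like motif (GAAA and GAAA with 2 bases of any kind between them). Both windows read 5′ to 3′ along the gene (chr14:31168592-31168891 and chr7:25788684-25788983, minus strand), and capitals mark the motif match.
Stab1: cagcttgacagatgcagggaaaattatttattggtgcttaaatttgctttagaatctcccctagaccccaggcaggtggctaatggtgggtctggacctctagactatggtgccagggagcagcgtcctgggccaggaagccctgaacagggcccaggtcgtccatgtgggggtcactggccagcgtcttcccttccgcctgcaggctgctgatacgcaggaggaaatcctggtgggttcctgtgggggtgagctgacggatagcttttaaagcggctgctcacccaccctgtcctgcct
Axl: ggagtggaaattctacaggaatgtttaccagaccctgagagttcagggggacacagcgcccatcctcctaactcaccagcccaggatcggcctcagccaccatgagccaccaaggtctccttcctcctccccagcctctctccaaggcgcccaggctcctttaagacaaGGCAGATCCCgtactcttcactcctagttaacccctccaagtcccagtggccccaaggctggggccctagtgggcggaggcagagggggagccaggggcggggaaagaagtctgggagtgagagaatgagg
The Stab1 window held no match of the 3 motifs. The Axl window held 1 match of the NF-kB-like motif, read on the opposite strand, with its first base 81 bases before the start. Of all 32851 promoter windows, 50.8% held the NF-kB-like motif, 7.81% the AP-1-like motif and 3.44% the interferon regulatory factor-like motif. A match of these letters is a description and does not show that a factor binds there.

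Over the 16 groups, each gene covered a wide range of levels, with TNFdARE Treg at the top for all 3. Mean Stab1 was highest in TNFdARE ileal Treg (167 ± 14.2 CPM, SD, n = 3), whose libraries lay apart from every other group. Then came TNFdARE mesenteric Treg (70.1 ± 22.8 CPM, n = 2), TNFdARE synovial Treg (66.8 ± 25.8 CPM, n = 3) and TNFdARE ileal Tconv (58.4 ± 5.31 CPM, n = 3). The libraries of neighbours in this middle stretch overlapped, down to WT ileal Treg (44.1 ± 8.33 CPM, n = 3). At the bottom, WT mesenteric Tconv held 1 Stab1 count over 3 libraries. The order of Axl was led by synovial Treg, with 309 ± 77.3 CPM in TNFdARE (n = 3) and 304 ± 11.7 CPM in WT (n = 2), and ended with WT Tconv of the joint nodes at 2.47 ± 0.356 CPM (n = 3). The order of Vcam1 was likewise led by synovial Treg (65.0 ± 36.3 CPM in TNFdARE, 48.2 ± 21.7 CPM in WT). Of the 15 pairs of neighbours in the order of group means, 7 did not overlap for Stab1, 7 for Axl and 2 for Vcam1.

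**Figure D1:**
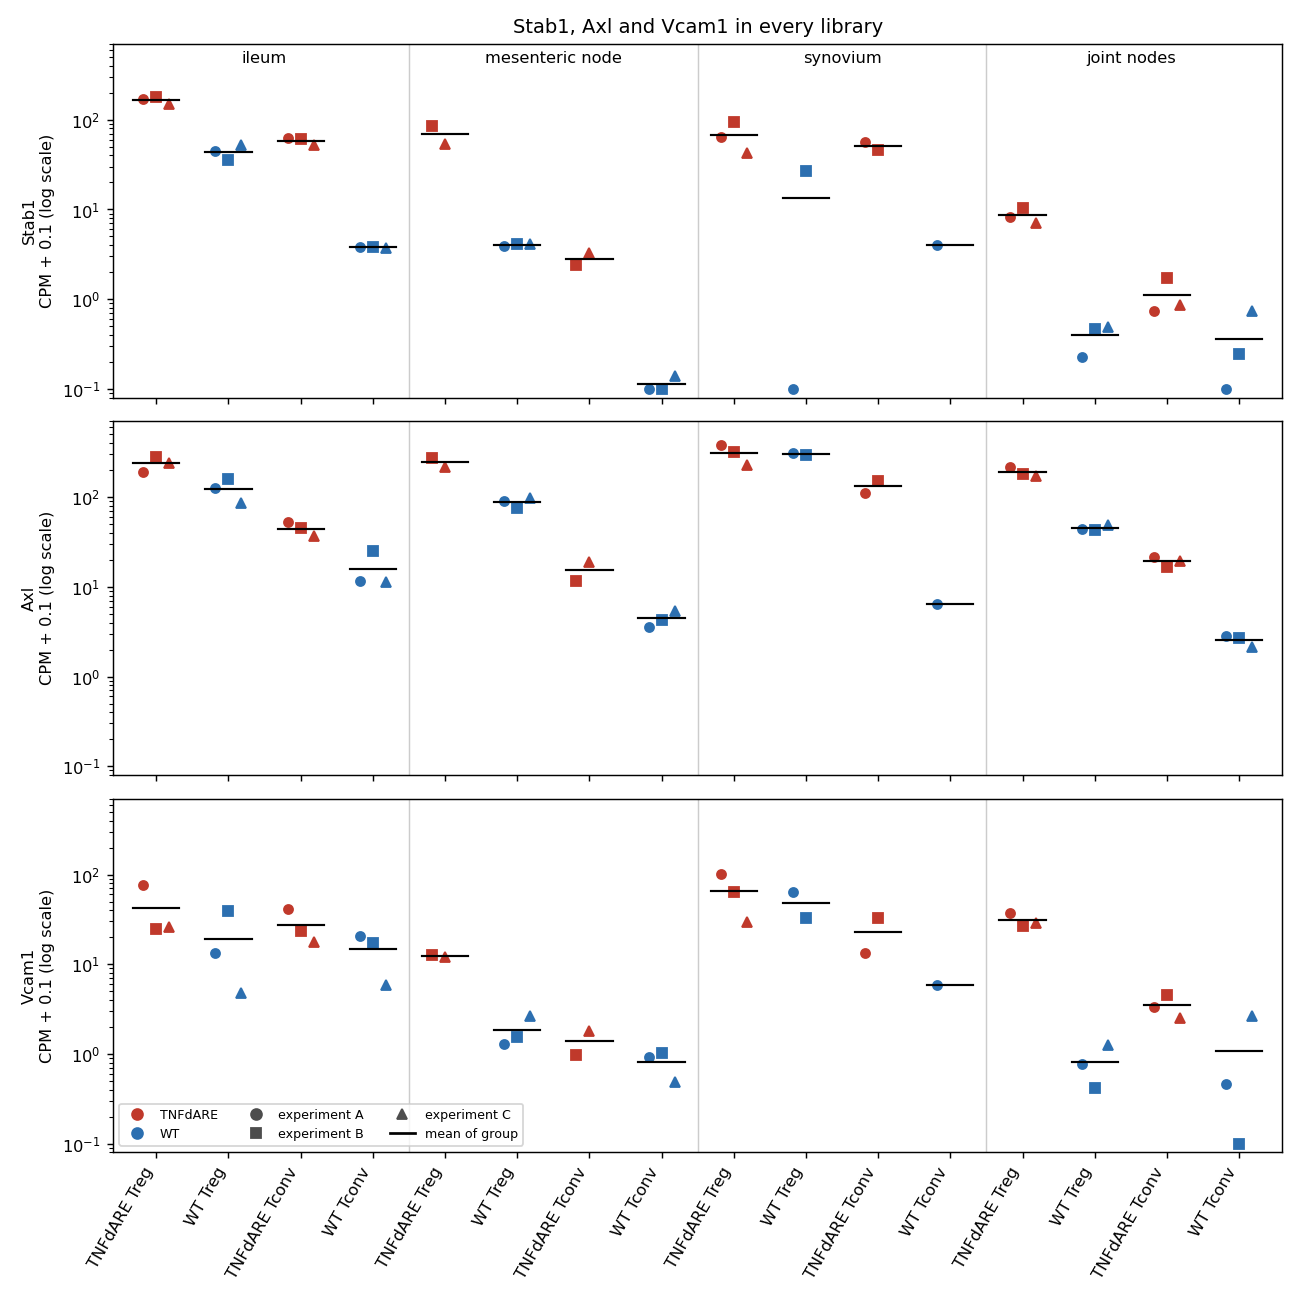
Level of Stab1, Axl and Vcam1 in each of the 42 libraries, as CPM + 0.1 on a log axis, for the 16 groups (TNFdARE red, WT blue; marker shape gives the experiment; black lines are group means). For Stab1 the red symbols stand above the blue ones in every pair of columns except joint-node Tconv, and for Axl in every pair except synovial Treg.

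Levels of different genes can be set side by side only per length, in the authors' FPKM. On that scale the highest group mean of Axl was 54.8 FPKM (TNFdARE synovial Treg), that of Stab1 was 14.5 FPKM (TNFdARE ileal Treg) and that of Vcam1 was 6.13 FPKM (TNFdARE synovial Treg). The order of the 16 groups was nearly the same in FPKM as in CPM, with Spearman's rho of 0.988 for Stab1, 0.997 for Axl and 0.988 for Vcam1, given as a description.

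Stab1 stood higher in TNFdARE than in WT at all 4 sites and in both kinds of T cell. In mesenteric Treg it held 86.2 and 54 CPM in TNFdARE, against 3.79, 3.98 and 3.99 CPM in WT. In ileal Treg it held 172, 178 and 151 CPM in TNFdARE, against 44.9, 35.5 and 52.1 CPM in WT. In joint-node Treg it held 8.17, 10.4 and 7.01 CPM in TNFdARE, against 0.128, 0.365 and 0.391 CPM in WT. All TNFdARE libraries of these 3 comparisons lay above all WT libraries. The fitted log2 fold changes were 4.18 ± 0.23 (SE) in mesenteric Treg, 1.90 ± 0.15 in ileal Treg and 4.84 ± 0.73 in joint-node Treg. Synovial Treg held 63.9, 94 and 42.5 CPM in TNFdARE, against 0 and 26.4 CPM in WT. The WT libraries of this pair stand far apart, since WT library A had no Stab1 count, where 3 counts would be 0.149 CPM. The log2 fold change there was 2.36 ± 1.64 with both WT libraries, 1.36 without WT library A and 13.54 without WT library B, which leaves only the library with no count.

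In Tconv, Stab1 was lower than in Treg in most groups, and again higher in TNFdARE. Ileal Tconv held 62.2, 60.7 and 52.3 CPM in TNFdARE, against 3.68, 3.73 and 3.63 CPM in WT (log2 fold change 3.99 ± 0.16). The WT libraries were nearly equal, and the TNFdARE Tconv libraries stood just above those of WT ileal Treg. In mesenteric Tconv, 2.32 and 3.15 CPM in TNFdARE stood against 0, 0 and 0.039 CPM in WT, that is 117 counts against 1. The ratio of these counts per total was 197, with a 95% interval of 34.8 to 7866 that covers counting error only. Synovial Tconv held 55.9 and 45.7 CPM in TNFdARE, against 3.9 CPM in the single WT library. Joint-node Tconv held 0.634, 1.61 and 0.75 CPM in TNFdARE, against 0, 0.143 and 0.638 CPM in WT. The last of these was the 1 comparison of 8 in which Stab1 libraries of the genotypes overlapped. In joint-node Tconv the log2 fold change was 1.96 ± 0.76, and 3.83 without WT library C.

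Libraries that do not overlap, with TNFdARE higher, were common among all genes tested, since groups are small. The share was 8.07% of genes in ileal Treg, 18.4% in mesenteric Treg, 14.3% in synovial Treg and 14.6% in joint-node Treg. In Tconv it was 10.8% in ileum, 15.3% in the mesenteric node, 37.3% in synovium and 7.9% in the joint nodes. As the 3 genes were chosen on this contrast, nothing is read from their counts against these shares. By the test itself (adjusted p below 0.05, either direction), 0.729% of genes were called in ileal Treg, 5.68% in mesenteric Treg, 0.156% in synovial Treg and 5.7% in joint-node Treg. In Tconv it was 1.31% in ileum, 2.36% in the mesenteric node, 0.512% in synovium and 2.79% in the joint nodes.

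Axl libraries lay apart by genotype in 7 of 8 comparisons. Joint-node Treg held 217, 182 and 173 CPM in TNFdARE, against 44.4, 43 and 48.5 CPM in WT (log2 fold change 2.07 ± 0.11). Mesenteric Treg held 276 and 215 CPM in TNFdARE, against 91.4, 76.3 and 97.1 CPM in WT (1.50 ± 0.19). Ileal Treg held 191, 279 and 242 CPM in TNFdARE, against 125, 158 and 86.4 CPM in WT (0.93 ± 0.31). These groups did not overlap, and the spread within each was small beside the gap in the nodes. In synovial Treg the genotypes overlapped, with 380, 322 and 227 CPM in TNFdARE, against 313 and 296 CPM in WT. The log2 fold change there was 0.07 ± 0.26, and it lay between -0.16 and 0.20 when a single library was left out. The means of both genotypes in synovial Treg stood above the TNFdARE means of the other sites.

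In Tconv, Axl was lower throughout, and higher in TNFdARE at each site. Joint-node Tconv held 21.3, 16.7 and 19.3 CPM in TNFdARE, against 2.72, 2.62 and 2.06 CPM in WT (2.94 ± 0.14). Mesenteric Tconv held 11.6 and 18.9 CPM in TNFdARE, against 3.49, 4.21 and 5.34 CPM in WT (1.80 ± 0.23). Neither pair of node groups overlapped. Ileal Tconv held 52.1, 44.9 and 36.8 CPM in TNFdARE, against 11.4, 24.8 and 11.3 CPM in WT (1.49 ± 0.32). Synovial Tconv held 111 and 152 CPM in TNFdARE, against 6.29 CPM in the single WT library (4.42 ± 0.46).

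Among Treg, Vcam1 separated the genotypes in both nodes and not in the tissues. Joint-node Treg held 37.4, 26.3 and 28.5 CPM in TNFdARE, against 0.68, 0.319 and 1.17 CPM in WT. Mesenteric Treg held 12.6 and 11.9 CPM in TNFdARE, against 1.2, 1.43 and 2.58 CPM in WT. In both nodes every TNFdARE Treg library lay above every WT one, and the log2 fold changes were 5.41 ± 0.72 in the joint nodes and 2.85 ± 0.42 in the mesenteric node. Ileal Treg held 77.3, 24.9 and 25.7 CPM in TNFdARE, against 13.1, 39.6 and 4.73 CPM in WT. Synovial Treg held 102, 63 and 29.7 CPM in TNFdARE, against 63.6 and 32.9 CPM in WT. Both tissue groups overlapped by genotype, with log2 fold changes of 1.16 ± 0.74 in ileum and 0.49 ± 0.63 in synovium. Leaving out TNFdARE ileal Treg A gave 0.41, and leaving out WT ileal Treg B gave 2.24. In synovium, the fold change was -0.06 without TNFdARE Treg A and 1.00 without WT Treg A.

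Vcam1 in Tconv was low in the nodes and variable in the tissues. Mesenteric Tconv held 0.877 and 1.72 CPM in TNFdARE, against 0.83, 0.912 and 0.39 CPM in WT. Joint-node Tconv held 3.26, 4.47 and 2.41 CPM in TNFdARE, against 0.366, 0 and 2.55 CPM in WT. Both overlapped, and the log2 fold changes were 0.86 ± 0.47 and 1.81 ± 0.70; the second was 4.10 without WT library C. Ileal Tconv held 41, 23.5 and 17.5 CPM in TNFdARE, against 20.6, 17.1 and 5.84 CPM in WT (0.91 ± 0.74). Synovial Tconv held 13.1 and 32.6 CPM in TNFdARE, against 5.82 CPM in the single WT library (2.01 ± 0.93).

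**Figure D2:**
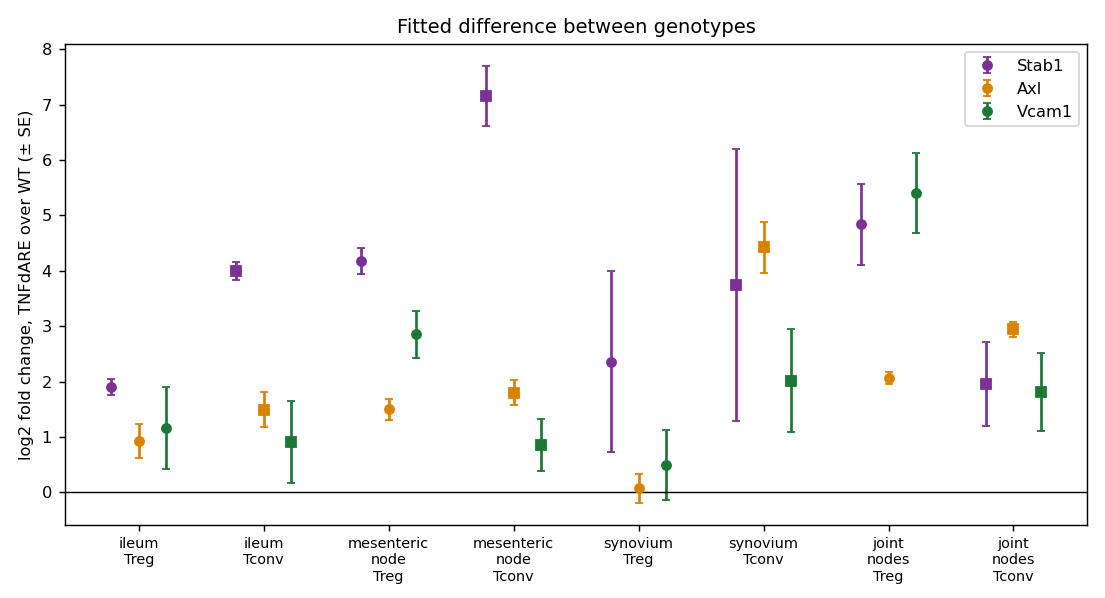
Fitted log2 fold change of TNFdARE over WT (y axis, ± SE) for Stab1, Axl and Vcam1 in Treg (circles) and Tconv (squares) of each site (x axis); values above 0 are higher in TNFdARE. All values lie above 0, Axl in synovial Treg lies at 0.07, and the point of Stab1 in mesenteric Tconv rests on a WT group with 1 count.

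Within an experiment the direction was the same for 2 of the genes in every pair. Of 19 pairs of TNFdARE and WT libraries with the same cell type, site and experiment letter, 19 had the higher Stab1 level and 19 the higher Axl level in TNFdARE. For Vcam1 it was 16 of 19, with WT higher in experiment B ileal Treg, experiment B mesenteric Tconv and experiment C joint-node Tconv. The median log2 ratio over the pairs was 3.82 for Stab1, 1.81 for Axl and 1.92 for Vcam1. The genes were chosen as higher in TNFdARE in these same data, so the pair counts are a description and support nothing further. The share of all genes with such pairs was not counted.

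Csf1r, C1qa and Adgre1 had few counts in the nodes. In the 22 node libraries, the raw counts of Csf1r lay between 0 and 18 (median 2), those of C1qa between 0 and 9 (median 2) and those of Adgre1 between 0 and 14 (median 1). In the same libraries Stab1 lay between 0 and 2073 counts (median 27), Axl between 42 and 6635 (median 717) and Vcam1 between 0 and 878 (median 40). These raw counts are not scaled by length, so they do not rank the genes. In joint-node Treg Csf1r held 18, 14 and 1 counts in TNFdARE, against 6, 1 and 1 counts in WT, and in mesenteric Treg 6 and 1 counts in TNFdARE, against 17, 1 and 1 counts in WT. The sum of all 15 macrophage genes held 6.16 and 6.83 CPM in TNFdARE mesenteric Treg, against 7.42, 3.31 and 4.7 CPM in WT. In joint-node Treg the sum held 9.92, 7.31 and 4.45 CPM in TNFdARE, against 7.82, 3.83 and 4.3 CPM in WT. Most of it came from Cd68 and Lyz2, and the summed ranges of the genotypes overlapped in both nodes.

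In the tissues the macrophage genes were highest in WT libraries of experiment A. Csf1r held 0, 10 and 1 counts in TNFdARE synovial Treg, against 2152 and 24 counts in WT. In ileal Treg it held 52, 19 and 0 counts in TNFdARE, against 529, 16 and 0 counts in WT. The highest values belong to WT synovial Treg A, WT ileal Treg A and WT synovial Tconv A (529 counts). The 15-gene sum was 75.3, 13.1 and 4.76 CPM in TNFdARE ileal Treg, against 230, 34.6 and 18.6 CPM in WT. In synovial Treg it was 22.4, 13.6 and 0.0894 CPM in TNFdARE, against 451 and 20.9 CPM in WT. WT synovial Treg A, with the highest sum of all 42 libraries, was also 1 of the 4 libraries without a Stab1 count. TNFdARE synovial Treg C, with the lowest sum, held 42.5 CPM of Stab1 and 227 CPM of Axl. These are single libraries, and WT synovial Treg A also had the highest stromal sum (16418 CPM). The part of macrophage RNA in the levels of Stab1, Axl and Vcam1, in tissues and nodes, was not tested.

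Of the macrophage list, 0 genes passed in either direction in any of the 8 genotype comparisons (edgeR quasi-likelihood test, adjusted p below 0.05). Between 0.156% and 5.7% of all genes were called there, so 0 of so few genes is no result about the list. At an unadjusted p below 0.05, 5 were lower in TNFdARE synovial Treg, 3 lower in synovial Tconv, 3 lower in ileal Treg, 1 higher in mesenteric Tconv and 1 higher in joint-node Treg. DESeq2 called 4 lower in synovial Treg, 3 lower in synovial Tconv, 1 lower in ileal Treg and 1 higher in joint-node Treg. The genes tested were 11 in ileum, 5 in the mesenteric node, 12 in synovium and 4 in the joint nodes. Csf1r had a log2 fold change of -3.14 ± 2.54 in ileal Treg (adjusted p = 0.67), -8.13 ± 2.37 in synovial Treg (0.33) and 1.93 ± 1.17 in joint-node Treg (0.40). Over the 16 group means of log2 CPM, Pearson's r with Csf1r was -0.04 for Stab1, 0.00 for Axl and 0.25 for Vcam1. Among themselves the 3 genes had r of 0.71 (Stab1 and Axl), 0.79 (Stab1 and Vcam1) and 0.76 (Axl and Vcam1), as a description over groups that share sites and experiments. All 3 were chosen for the same difference between genotypes in these groups, so nothing is read from their likeness to each other.

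**Figure D3:**
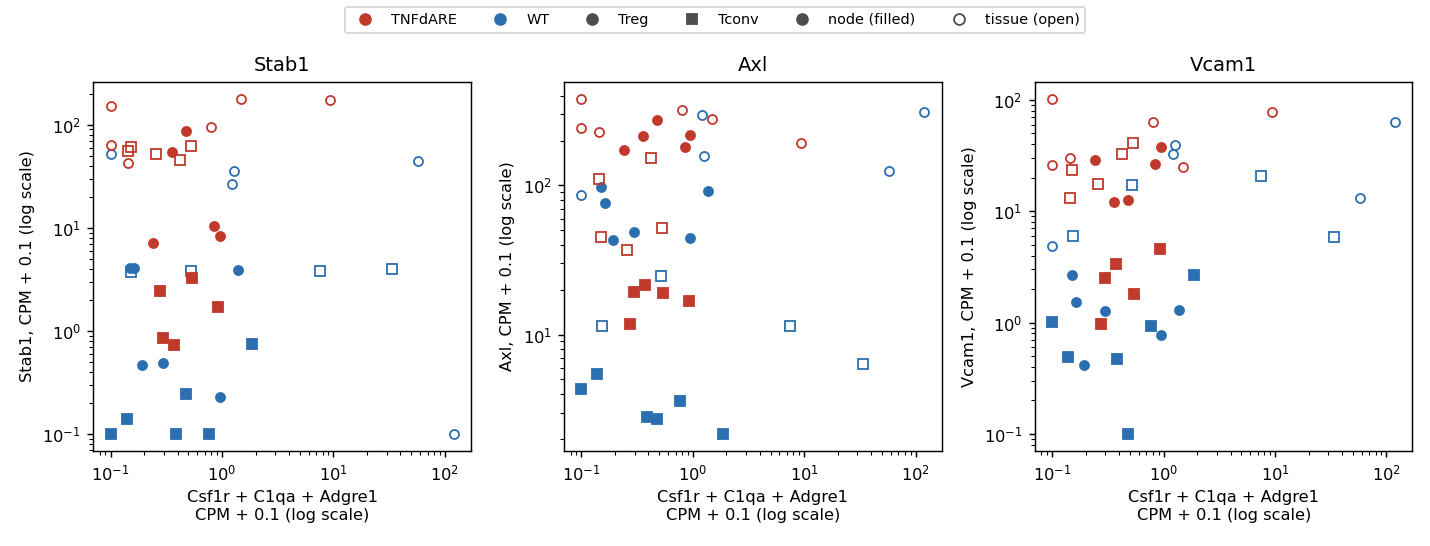
Level of Stab1, Axl and Vcam1 (y axes) against the sum of Csf1r, C1qa and Adgre1 (x axis) in each library, both as CPM + 0.1 on log axes; red is TNFdARE, blue WT, circles Treg, squares Tconv, filled symbols nodes and open symbols tissues. The libraries farthest right are WT tissue libraries, and the node libraries differ widely in Stab1, Axl and Vcam1 at macrophage sums of at most 1.77 CPM.

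Summed dendritic cell markers, carried mainly by the single gene Zbtb46, were higher in TNFdARE than in WT node Treg. The sum of 7 such genes was 13.1 and 11.8 CPM in TNFdARE mesenteric Treg, against 5.82, 4.33 and 5.61 CPM in WT. In joint-node Treg it was 25.8, 20.4 and 16.6 CPM in TNFdARE, against 5.48, 7.93 and 6.98 CPM in WT. In ileal Treg it was 121, 53.5 and 55.7 CPM in TNFdARE, against 23, 25.4 and 12.5 CPM in WT, and only in synovial Treg did the genotypes overlap among Treg. Most of each sum came from Zbtb46, a transcription factor of classical dendritic cells. Zbtb46 rose in TNFdARE mesenteric Treg (1.30 ± 0.24, adjusted p = 0.0088, edgeR) and joint-node Treg (1.43 ± 0.31, adjusted p = 0.014), with 2.31 ± 0.48 in ileal Treg (adjusted p = 0.064). Xcr1, a chemokine receptor of cross-presenting dendritic cells, rose in joint-node Treg (2.92 ± 0.66, adjusted p = 0.019, edgeR). Of the markers, 1 of 3 tested rose in mesenteric Treg and 2 of 3 in joint-node Treg. Of all genes, 5.68% and 5.7% were called there in either direction. Clec9a had no count in any node Treg group, and Itgax and Cd209a had none in TNFdARE node Treg. The part of dendritic cells in the levels of Stab1, Axl and Vcam1 was not tested.

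Foxp3 rose in TNFdARE Tconv at all 4 sites. It stood at 149 ± 45.6 CPM in TNFdARE ileal Tconv and 16.4 ± 2.87 CPM in WT (SD, n = 3 each; log2 fold change 3.18 ± 0.22, adjusted p = 6e-05, edgeR). In joint-node Tconv it was 34.5 ± 6.19 CPM in TNFdARE and 6.63 ± 0.206 CPM in WT (2.37 ± 0.11, adjusted p = 2.5e-08). In mesenteric Tconv it was 29.3 ± 10.2 CPM in TNFdARE (n = 2) and 6.77 ± 0.476 CPM in WT (n = 3; 2.10 ± 0.17, adjusted p = 6.3e-05, edgeR). Synovial Tconv had 600 and 604 CPM in TNFdARE, against 30.6 CPM in the single WT library (4.34 ± 0.48, adjusted p = 0.014). In Treg, Foxp3 did not pass the test between genotypes at any site, with adjusted p from 0.42 to 1.

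Shares of the Treg level put these values on 1 scale. In the ileum, mean Foxp3 in Tconv was 9.54% of its Treg level in TNFdARE and 1.41% in WT, and for Stab1 the shares were 35% in TNFdARE and 8.33% in WT. For ileal Axl they were 18.8% in TNFdARE and 12.8% in WT, and for ileal Vcam1 64.1% in TNFdARE and 75.9% in WT. In the synovium of TNFdARE mice, Foxp3 in Tconv reached 44.1% of its Treg level, Stab1 76%, Axl 42.5% and Vcam1 35.1%. In the TNFdARE joint nodes these shares were 3.03% for Foxp3, 11.7% for Stab1, 10% for Axl and 11% for Vcam1. In the TNFdARE mesenteric node they were 2.56% for Foxp3, 3.9% for Stab1, 6.22% for Axl and 10.6% for Vcam1. In ileum and nodes, then, the shares of the 3 genes in TNFdARE Tconv were above that of Foxp3, and in synovium those of Axl and Vcam1 were below it. In WT ileum and nodes they were also above it, except Stab1 in the mesenteric node (0.331%, against 0.674% for Foxp3). In the WT joint nodes, where both genes had few counts, the shares were 88.4% for Stab1 and 134% for Vcam1, against 0.584% for Foxp3. The part of Foxp3-bearing cells in the Tconv values was not tested, and their share and their level per cell cannot be told apart here.

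Stromal and endothelial transcripts varied widely between tissue libraries. The sum of 10 stromal genes, mostly collagen transcripts such as Col3a1, was 2323, 346 and 21.4 CPM in TNFdARE ileal Treg, against 177, 914 and 23.5 CPM in WT. The libraries with the most stromal RNA in each genotype, TNFdARE A and WT B, were also those with the most Vcam1. Below them, TNFdARE B and C held nearly equal Vcam1 at unlike stromal sums. The sum of 12 endothelial genes was 176, 107 and 107 CPM in TNFdARE ileal Treg, against 87.3, 520 and 158 CPM in WT, again highest in TNFdARE A and WT B. In synovial Treg the stromal sum was 4691, 6120 and 1462 CPM in TNFdARE, against 16418 and 13162 CPM in WT, while Vcam1 overlapped between the genotypes. Of 10 stromal genes, 9 were tested in synovial Treg, where Dcn, a proteoglycan of connective tissue, fell in TNFdARE (-2.89 ± 0.35, adjusted p = 0.048) and 0 rose, against 0.156% of genes called. At an unadjusted p below 0.05, 4 were lower and 1 higher there, and DESeq2 called 4 lower. In synovial Tconv the list stood the other way, with Pdgfrb higher in TNFdARE (adjusted p = 0.031, edgeR), 7 of 9 higher at an unadjusted p below 0.05 and 4 higher by DESeq2. The part of stromal and endothelial RNA in the tissue values of Vcam1 and Stab1 was not tested. In the nodes the stromal sum reached at most 3.62 CPM in TNFdARE Treg, against at most 2.15 CPM in WT Treg. Vcam1 reached 37.4 CPM in TNFdARE and 2.58 CPM in WT there. The endothelial sum of node Treg was 108 to 118 CPM in TNFdARE, against 174 to 206 CPM in WT in the mesenteric node, and 165 to 186 CPM in TNFdARE, against 210 to 241 CPM in WT in the joint nodes. At least 96.5% of it came from Pecam1, which T cells also express. Tek, Lyve1 and Emcn had no count in TNFdARE node Treg. Madcam1, of the same list, rose and Pecam1 fell in TNFdARE Treg of both nodes, with values given further on. By edgeR, 1 of 3 tested endothelial genes rose and 1 fell in mesenteric Treg, where 5.68% of all genes were called. In joint-node Treg 1 of 4 rose and 1 fell, where 5.7% of genes were called. At an unadjusted p below 0.05, 2 were higher and 1 lower in each node.

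**Figure D4:**
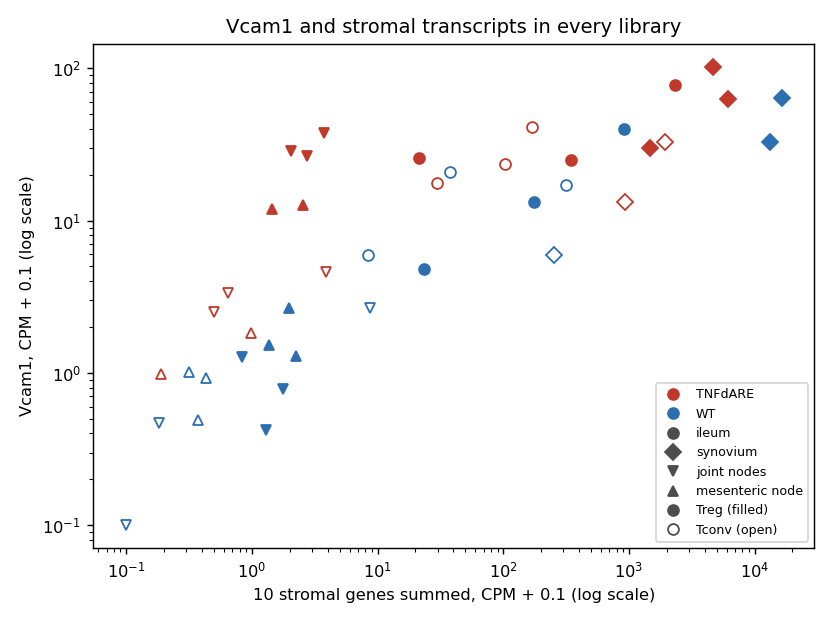
Vcam1 (y axis) against the sum of 10 stromal genes (x axis) in each library, both as CPM + 0.1 on log axes; colours give the genotype (TNFdARE red, WT blue), shapes the site, filled symbols Treg and open symbols Tconv. In ileal Treg the library with the most stromal RNA in each genotype also has the most Vcam1, and TNFdARE node Treg stand between 11.9 and 37.4 CPM at stromal sums of at most 3.62 CPM.

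Treg held more Axl than Tconv at every site. This comparison gives both genotypes the same weight, so it includes the TNFdARE libraries on which the genes were chosen. All Treg libraries lay above all Tconv libraries in 8 of 8 pairs of site and genotype. Of all genes tested, the share with such libraries was 12.6% in TNFdARE and 11.3% in WT ileum, 28.8% in TNFdARE and 22.8% in WT mesenteric node, 10% in TNFdARE and 24.9% in WT synovium, and 22.8% in TNFdARE and 22.5% in WT joint nodes. The log2 fold change was 3.75 ± 0.09 in the joint nodes (adjusted p = 3.9e-13, edgeR's quasi-likelihood test with Benjamini-Hochberg adjustment over all genes tested), 4.19 ± 0.16 in the mesenteric node (3.6e-09), 2.70 ± 0.23 in the ileum (2.4e-05) and 3.38 ± 0.27 in the synovium (0.0041). Axl passed in every fit that left out 1 library.

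Stab1 was higher in Treg than in Tconv in the ileum, the mesenteric node and the joint nodes. The log2 fold change was 2.57 ± 0.11 in the ileum (adjusted p = 1.7e-07) and 6.20 ± 0.27 in the mesenteric node (8.7e-09). The mesenteric value depends on a WT Tconv group with 1 count, and within TNFdARE alone the mean CPM was 25.6-fold higher in Treg. In the joint nodes it was 1.63 ± 0.53 (adjusted p = 0.023), with mean CPM 8.53-fold higher in Treg within TNFdARE, and 1.13-fold higher within WT, where the libraries overlapped and the groups held 19 counts in Treg and 16 in Tconv. That call ended when WT Tconv B, TNFdARE Treg B, WT Treg B or WT Treg C was left out (adjusted p from 0.057 to 0.071). In the synovium the difference was 1.05 ± 1.32 (adjusted p = 0.87), and without WT Treg B, which leaves the WT library with no Stab1 count, it was -4.50 (adjusted p = 0.02).

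Vcam1 was higher in mesenteric Treg than in Tconv (2.27 ± 0.32, adjusted p = 0.00014, edgeR). In the joint nodes the value was 1.37 ± 0.51 (adjusted p = 0.043), with mean CPM 9.1-fold higher in Treg within TNFdARE and 0.744 of the Tconv level within WT. This call ended in 9 of the 12 fits that left out 1 library (adjusted p up to 0.16). The difference was 0.55 ± 0.52 in the ileum (adjusted p = 0.53), where leaving out WT Treg B gave -0.03. In the synovium it was 2.24 ± 0.60 (adjusted p = 0.18), while DESeq2 gave 2.32 (adjusted p = 0.00088). All 3 genes thus passed as higher in Treg in both nodes, against 20.8% of genes in the mesenteric node and 22.1% in the joint nodes. In the ileum 2 of 3 passed, against 7.93% of genes, and in the synovium 1 of 3, against 0.952%. The genes were chosen for high levels in TNFdARE libraries that this comparison includes, so nothing is read from these counts against the shares. The macrophage genes Csf1r, C1qa and Adgre1 passed in none of these comparisons in which they were tested. In the ileum they stood higher in Treg without passing, with log2 fold changes of 3.04 ± 1.83 for Csf1r (adjusted p = 0.30, edgeR), 3.38 ± 1.72 for C1qa (0.22) and 4.16 ± 1.87 for Adgre1 (0.17). Of the 11 macrophage genes tested there, 3 were higher at an unadjusted p below 0.05 and 1 by DESeq2. Of the endothelial list, Prox1, a transcription factor of lymphatic endothelium, was higher in Treg in the ileum (3.21 ± 0.52, adjusted p = 0.0018, edgeR), the mesenteric node (5.72 ± 0.93, 0.00083) and the joint nodes (adjusted p = 0.0017). Madcam1 was higher in mesenteric Treg (3.29 ± 0.59, adjusted p = 0.00084, edgeR), and Pecam1 was lower in Treg of both nodes. Of the stromal list, 2 of 2 tested genes (Col1a1 and Col1a2) were higher in Treg in the mesenteric node and 3 of 9 (Dcn, Pdgfra and Pdgfrb) in the synovium, and the stromal sum of mesenteric Treg was at most 2.45 CPM. The part of these cell types in the difference was not tested. Whether the difference between Treg and Tconv itself differs by genotype was not tested.

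**Figure D5:**
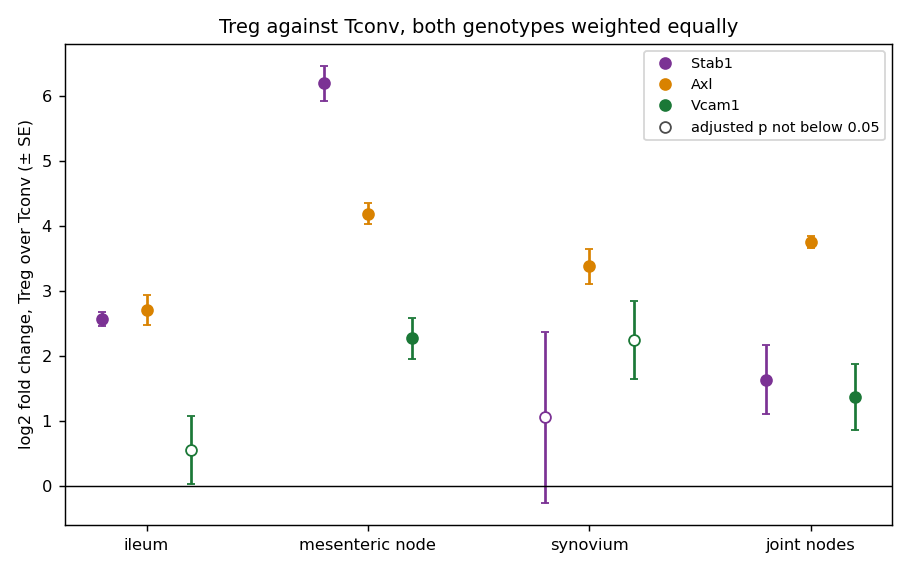
Log2 fold change of Treg over Tconv (y axis, ± SE) for Stab1, Axl and Vcam1 at each site (x axis); open symbols did not reach an adjusted p below 0.05. Axl lies between 2.70 and 4.19 at all 4 sites, while Stab1 and Vcam1 differ more between sites.

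Treg of the tissues were compared with Treg of the draining nodes, again with both genotypes weighted equally. Stab1 was higher in ileal than in mesenteric Treg (2.38 ± 0.15 on the log2 scale, adjusted p = 5.1e-06, edgeR), with WT ileal Treg at 44.1 ± 8.33 CPM and WT mesenteric Treg at 3.92 ± 0.115 CPM (SD, n = 3 each). Axl was 0.22 ± 0.17 (adjusted p = 0.34) between the same sites. Vcam1 was higher in ileal Treg (2.64 ± 0.58, adjusted p = 0.0086), a call that ended without TNFdARE mesenteric Treg B (0.052) or C (0.062). Against joint-node Treg, synovial Treg held more Axl (1.74 ± 0.13, adjusted p = 1.1e-05) and more Vcam1 (3.59 ± 0.40, adjusted p = 0.00012). Stab1 was also higher (4.24 ± 1.01, adjusted p = 0.0093), but without WT synovial Treg B the value was -1.36 (adjusted p = 0.32). Of the 3 genes, 2 passed as higher in ileal Treg and 3 in synovial Treg, against 17% and 19.2% of all genes tested. The TNFdARE libraries of the choice are part of this comparison too, so nothing is read from these counts against the shares.

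The tissue libraries also differed from the nodes in RNA of other cells. Of 10 stromal genes, 7 of 8 tested were higher in ileal than in mesenteric Treg, and 8 of 9 in synovial than in joint-node Treg, for example Dcn (13.44 ± 0.46, adjusted p = 8.7e-08). Of 12 endothelial genes, 4 of 11 tested were higher in ileal Treg and 7 of 12 in synovial Treg. Of the macrophage list, Cd14 was higher in ileal Treg (1 of 11 tested), and Cd14, Mertk and Csf1r were higher and Timd4 lower in synovial Treg (9 tested). Csf1r had a log2 fold change of 3.72 ± 1.26 between synovial and joint-node Treg (adjusted p = 0.042). Of the epithelial list, 5 of 5 tested were higher in ileal Treg, and 0 of 4 higher and 2 lower in synovial Treg. The epithelial sum of ileal Treg lay between 25.9 and 601 CPM in TNFdARE and between 44.2 and 401 CPM in WT. In mesenteric Treg it reached at most 27.3 CPM in TNFdARE and 23.7 CPM in WT. Of the dendritic list, 2 of 4 tested were higher in ileal Treg and 1 of 2 in synovial Treg. The part of these cells in the tissue levels of Stab1, Axl and Vcam1 was not tested.

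No other scavenger receptor of a list of 13 passed the edgeR test between genotypes. Of these genes, among them Stab2, the closest relative of Stab1, Cd36, a lipid scavenger receptor, and Scarb1, a receptor of high-density lipoprotein, 0 passed with edgeR in any of the 8 genotype comparisons (5 to 11 tested), where 0.156% to 5.7% of all genes were called, a background at which 0 of so few genes is no result about the list. At an unadjusted p below 0.05, 4 were lower in TNFdARE synovial Treg, 3 lower in ileal Treg, and 1 higher each in mesenteric Treg, joint-node Treg and synovial Tconv, with 1 lower in mesenteric Treg. DESeq2 called 3 lower in synovial Treg, 1 lower in ileal Treg and 1 higher each in joint-node Treg and synovial Tconv. Stab2 had a mean of at most 2.12 CPM in any group, and 0.084 ± 0.0577 CPM in TNFdARE mesenteric Treg (n = 2), against 0.0558 ± 0.0652 CPM in WT (n = 3). The median log2 fold change of the tested scavenger genes was 0.126 in mesenteric Treg and 0.0587 in joint-node Treg, against 0.00511 and -0.0151 over all genes.

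The other TAM receptors, Tyro3 and Mertk, did not pass the edgeR test between genotypes. Tyro3 held 11.1 ± 2.7 CPM in TNFdARE mesenteric Treg (n = 2), against 11.4 ± 1.42 CPM in WT (n = 3). In joint-node Treg Tyro3 held 11.1 ± 1.19 CPM in TNFdARE and 13.4 ± 1.72 CPM in WT (SD, n = 3 each). Mertk was at or near 0 in the nodes, with a highest group mean of 0.376 CPM. Gas6, the ligand of Axl, averaged at most 0.141 CPM in node groups. In synovial Treg Gas6 held 42.3 ± 27.5 CPM in TNFdARE (n = 3), against 285 ± 260 CPM in WT (n = 2). Gas6 is also a stromal product, and the stromal sum was highest in the same WT libraries.

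Pros1, which encodes protein S, the other ligand of this receptor family, was higher in Treg than in Tconv in the mesenteric node (3.60 ± 0.24, adjusted p = 2.8e-07, edgeR), in the joint nodes (3.22 ± 0.23, 4.2e-08) and in the ileum (2.19 ± 0.40, 0.0041). It did not pass between genotypes, and held 80.3 ± 26.7 CPM in TNFdARE mesenteric Treg (n = 2), against 53.9 ± 8.65 CPM in WT (n = 3). Of 14 genes of the TAM pathway and of dead-cell clearance, Itgb3, an integrin chain that binds the bridging protein Mfge8, changed between genotypes at 2 sites, in opposite directions. It rose in TNFdARE ileal Treg (1.09 ± 0.14, adjusted p = 0.0073) and Tconv (0.76 ± 0.14, 0.026). It fell in TNFdARE joint-node Treg (-0.86 ± 0.09, adjusted p = 5.3e-05) and Tconv (-0.47 ± 0.09, 0.0057). The difference between the sites was not tested. Itgb5, the other partner chain of Itgav in this list, rose in TNFdARE mesenteric Treg (3.13 ± 0.63, adjusted p = 0.013) and synovial Tconv (adjusted p = 0.037). The synovial Tconv value is set against 1 WT library.

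Among adhesion molecules, Icam1, which like Vcam1 is an immunoglobulin-family molecule induced by TNF, rose in the Treg of both nodes. In mesenteric Treg it held 243 ± 66.2 CPM in TNFdARE (n = 2), against 104 ± 11.3 CPM in WT (n = 3), a log2 fold change of 1.24 ± 0.14 by edgeR (adjusted p = 0.00044). In joint-node Treg it held 160 ± 26 CPM in TNFdARE and 110 ± 13.3 CPM in WT (n = 3 each; 0.53 ± 0.14, adjusted p = 0.042). Madcam1, an addressin of gut vessels, also rose in both, to 2.28 ± 0.537 CPM in TNFdARE mesenteric Treg against 0.314 ± 0.147 CPM in WT (adjusted p = 0.022), and to 1.81 ± 1.1 CPM in TNFdARE joint-node Treg against 0.0446 ± 0.0456 CPM in WT (0.013). Pecam1, an adhesion molecule of endothelium and leukocytes, fell in both (-0.75 ± 0.10 in the mesenteric node, adjusted p = 0.0011; -0.39 ± 0.08 in the joint nodes, 0.0099).

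Of the 13 adhesion genes, 3 rose and 1 fell in mesenteric Treg, where 5.68% of all genes were called in either direction. In joint-node Treg 3 rose and 1 fell, where 5.7% of genes were called. In ileal Tconv 2 rose and 0 fell (1.31% of genes), namely Itgb7 (0.67 ± 0.14, adjusted p = 0.041, edgeR) and Itga4 (0.78 ± 0.16, 0.048), chains of the integrin that binds Madcam1 and Vcam1. In mesenteric Tconv Madcam1 rose (4.47 ± 0.97, adjusted p = 0.032, edgeR). In joint-node Tconv Itga9, an integrin chain that also binds Vcam1, fell (-1.67 ± 0.38, adjusted p = 0.028, edgeR). In ileal Treg, synovial Treg and synovial Tconv 0 of 12 or 13 tested passed with edgeR. At an unadjusted p below 0.05 these were 2, 2 and 3 genes, and DESeq2 called 2, 1 and 2. In mesenteric Treg Itgb7 rose by 0.35 ± 0.09 (adjusted p = 0.039), and in joint-node Treg Itgb1 rose by 0.36 ± 0.08 (0.018). The median log2 fold change of the list was -0.0855 in mesenteric Treg and -0.114 in joint-node Treg, against 0.00511 and -0.0151 over all genes.

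Of all genes with a symbol and a mean log2 CPM of at least 1, the 5 with the pattern most like each gene were found by Pearson's r over the 16 group means, as a description. For Stab1 they included Fbxo6 (r = 0.952), Mapkapk2, a kinase below p38 (0.921), Chst2 (0.918) and Slc39a4, a zinc transporter (0.917). For Axl they were Tnfrsf8, which encodes CD30 (0.960), Eva1b (0.958), Neu3 (0.953), Csf1, the growth factor whose receptor is Csf1r (0.952), and Itgae, the CD103 chain (0.949). For Vcam1 they were Ifitm2 (0.921), Stk32c (0.915), Mrpl32 (0.911), Abhd4 (0.908) and Dkk3 (0.901). Over the 8 node groups alone, the first in the order were Fut8 for Stab1 (0.977), Gpr15, a homing receptor of T cells, for Axl (0.995) and Nipsnap1 for Vcam1 (0.973). The names depend on the measure: with Spearman's rho 2 of the 5 stayed for Stab1, 2 for Axl and 3 for Vcam1 over the 16 groups. Over the 8 node groups 2 stayed for Stab1, 0 for Axl and 0 for Vcam1, and with Pearson's r over the 22 node libraries 0 stayed for Stab1, 2 for Axl and 1 for Vcam1.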

How the data were processed

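Bulk RNA of 42 sorted Treg and Tconv libraries was read from 2 tables. Per the labels' protocols, RNA was reverse transcribed by SMART-Seq v4 from 1 of 2 input amounts and sequenced as single reads. The tools named are cutadapt 1.15 and Bowtie2 2.3.3.1 with the GRCm38 build, per the submitters' processing notes; the counting program and its strand setting are not given in the sources used here. The deposited counts are raw counts of 46603 genes. The FPKM values were made by the authors for 18964 genes; none is 0, and 97.2% of the genes hold a value repeated between libraries, so FPKM served only for levels between genes and the order of groups. Symbols came from GENCODE M21 (46005 of the identifiers; 598 had none).

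Each site was fitted with edgeR 4.0.16 (R 4.3.3): TMM, filterByExpr, a mean for each group, quasi-likelihood F test, Benjamini-Hochberg adjustment over all genes tested, threshold 0.05. Tissue against node used the Treg libraries of both sites. CPM used TMM-scaled totals over all libraries, and log2 CPM a prior count of 2. The fit was tested on simulated data. The 3 genes, the lists and the tests were chosen with earlier results of these data known; the Tconv shares of the Treg level were added after the values were seen. Named genes are the 3 genes, Csf1r, C1qa and Adgre1, the 5 most alike genes per gene, and list members with the smallest adjusted p or named with their values; 1 of the genes most like Stab1 is not reported here.

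Experiment letters, which the labels give to 3 experiments, were checked as pairs. Of 18 pairs of TNFdARE and WT libraries with the same letter, 14 had deviations from the group means that correlated over genes by more than 0.1 (-0.019 to 0.41, median 0.21). The letter was run as a replicate block. Other alternatives were RLE factors, no filter, 1 fit of all 42 libraries, the sample-sheet pass as a covariate, DESeq2 1.42.0 and leaving out each library. The sample-sheet pass is a split made here between low and high S numbers in the library names, and no label calls it a batch. In the synovium every WT library has a high number, so the split is partly tied to genotype there. Labels do not say whether libraries of a group came from separate animals, so p-values measure the spread between these libraries. Intervals and floors of 3 counts cover counting error only.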

Additional observations from a re-analysis of the deposited data

How the results depend on the processing

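Of the values of the 3 genes between genotypes, 136 of 138 under other settings and 240 of 249 with 1 library left out moved by less than the pooled SD between replicate libraries on the log2 CPM scale. The exceptions were Stab1 in mesenteric Tconv (7.52 with DESeq2) and in synovial Tconv (3.20 with the experiment letter as a replicate block), and 9 fits without 1 library. Each of these 9 left out a library of the groups compared. Many of the 249 left out a library of the other cell type, which can hardly move the value. The SD is wide where replicates differ, so Vcam1 in ileal Treg (0.41 to 2.24) and synovial Treg (-0.06 to 1.00) counted as unmoved. With 1 library left out, Stab1 ranged over 3.78 to 4.47 in mesenteric Treg, 6.72 to 9.01 in mesenteric Tconv, 1.36 to 13.54 in synovial Treg and 1.33 to 3.83 in joint-node Tconv. Axl in mesenteric Treg ranged over 1.29 to 1.66, and Vcam1 in joint-node Tconv over 1.24 to 4.10. For Treg against Tconv, 63 of 69 values under other settings kept their direction and side of the threshold. In the joint nodes Stab1 was 1.61 (adjusted p = 0.13) in the fit of all 42 libraries and 1.51 (0.068) with the sample-sheet pass, and Vcam1 was 1.31 (0.14), 1.13 (0.15) and, with DESeq2, 1.35 (0.19). Vcam1 in the synovium was 2.32 (0.00088) with DESeq2. With 1 library left out, Stab1 ranged over 1.32 to 2.56 in the joint nodes and -4.50 to 1.55 in the synovium, and Vcam1 over 1.09 to 2.51 in the joint nodes and -0.03 to 0.76 in the ileum. Without WT Treg B, Stab1 in the synovium was -4.50 and Vcam1 in the ileum -0.03. For tissue against node, all 36 values under other settings stayed on their side of the threshold, Vcam1 between ileum and mesenteric node ranged over 2.11 to 2.88 and Stab1 between synovium and joint nodes over -1.36 to 4.74, with -1.36 without WT synovial Treg B. The causes of these changes were not tested. The replicate block changed no call of the 3 genes.

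The number of genes called between genotypes depends strongly on the setting, so the background shares are those of 1 fit: 116 genes in ileal Treg (75 to 837 under other settings), 208 in ileal Tconv (194 to 601), 842 in mesenteric Treg (194 to 1405), 350 in mesenteric Tconv (121 to 884), 28 in synovial Treg (0 to 3512), 92 in synovial Tconv (2 to 2144), 838 in joint-node Treg (86 to 1453) and 410 in joint-node Tconv (123 to 605). For Treg against Tconv it was 2353 in ileum (1207 to 3630), 5720 in the mesenteric node (2437 to 6200), 197 in synovium (71 to 3262) and 6351 in the joint nodes (2980 to 7503). For tissue against node it was 4881 for ileum (2761 to 6536) and 6177 for synovium (3639 to 8879). The 0 in synovial Treg is edgeR with the replicate block, where the fit without the block had 1792 genes at an unadjusted p below 0.05 and DESeq2 called 1163. A fit without the single WT synovial Tconv library could not be made for comparisons that need that group, and the sample-sheet pass could not be estimated in the mesenteric fits. Synovial WT groups of 2 and 1 libraries, and WT node levels near 0 counts, limit what depth can show for Stab1 and Vcam1.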

Other observations

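Cd163, a scavenger receptor that served here as a macrophage marker, held counts in Tconv of the nodes and next to none in Treg. In the mesenteric node all 5 Treg libraries had no Cd163 count, while Tconv held 0.37 ± 0.0355 CPM in TNFdARE (n = 2) and 1.3 ± 0.752 CPM in WT (n = 3; Treg against Tconv adjusted p = 0.00049, edgeR). In the joint nodes Treg averaged 0.0142 CPM in TNFdARE and 0 CPM in WT, and Tconv held 0.987 ± 0.493 CPM in TNFdARE and 1.99 ± 0.669 CPM in WT (n = 3 each; adjusted p = 6.3e-06, edgeR).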
